A study of Mus musculus with 12 samples.

Results

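The replication-dependent histone genes encode the bulk histones that package newly copied DNA. They were taken here as every entry of the deposited value table whose symbol starts with Hist1h, Hist2h, Hist3h or Hist4h, which gave 66 of 20368 entries. By histone type these were 5 H1, 18 H2A, 17 H2B, 12 H3 and 13 H4 entries, plus 1 entry in which the overlapping genes Hist1h2be (H2B) and Hist1h1e (H1) had been counted together. The Hist1 cluster on chromosome 13 held 53 entries, the Hist2 cluster on chromosome 3 held 10, Hist3 on chromosome 11 held 2 and Hist4 on chromosome 6 held 1.

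RNA-seq was performed on embryonic hearts of CD1 mice, with 3 libraries for each of 4 groups. At each of the stages E11.5 and E12.5, controls (Cre control) had the genotype Mesp1Cre;Hira+/fl and mutants (Mutant) the genotype Mesp1Cre;Hira-/fl. Every heart carried Mesp1Cre, which drives recombination in early mesoderm, and a floxed Hira allele, so that recombined control cells keep a single functional copy. Cells of the heart that do not come from Mesp1-expressing mesoderm, such as neural crest cells, are not recombined. The labels do not say how many hearts went into a library or whether the replicates came from separate litters, so that p-values measure the spread between these libraries.

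Replication-dependent histone genes are transcribed in S phase and most lack introns. Their mRNAs normally end just after a short stem-loop rather than in a poly(A) tail, and the stem-loop is bound by SLBP, which is needed for 3′ end formation and translation. HIRA, the chaperone removed in the mutants, deposits the replacement histone H3.3 independently of DNA replication. The H3 proteins of these clusters (H3.1 and H3.2) are deposited at replication forks. H2A, H2B, H3 and H4 form the nucleosome core and H1 binds the linker DNA.

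To show what the histone transcripts share, the longest annotated transcript of each gene (GENCODE vM21, GRCm38) was searched for the stem-loop, spelled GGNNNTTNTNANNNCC with the first 6 bases complementary to the last 6. Of the 58 singly counted members matched by Ensembl identifier, 38 held it, against 68 of 21901 protein-coding genes (0.31%). Of these 68, 40 were found by identifier to be histone cluster genes, once both genes of the merged entry were included. The stem-loops of these 40 all lay after the coding sequence, in the 3′ UTR. The 7 members without a match by identifier may be among the rest of the 68. The following sites, with the 16 bases of the stem-loop in capitals and 5 flanking bases on either side, are those of the most abundant members that held it and of further H3 and H4 genes, shown to compare types.
Hist1h1c: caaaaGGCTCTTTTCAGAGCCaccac
Hist3h2a: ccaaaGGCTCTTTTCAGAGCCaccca
Hist3h2ba: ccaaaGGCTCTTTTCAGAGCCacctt
Hist2h3c1: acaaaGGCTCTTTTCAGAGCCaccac
Hist1h3c: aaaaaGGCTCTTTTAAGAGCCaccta
Hist1h4i: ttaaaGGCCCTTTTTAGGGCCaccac
Hist4h4: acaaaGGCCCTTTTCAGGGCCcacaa

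The stem-loop of Hist1h1c was at chr13:23739512-23739527 on the plus strand and that of Hist3h2ba at chr11:58949349-58949364 on the plus strand. The same 16 letters, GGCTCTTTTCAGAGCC, occurred in 20 members of types H1, H2A, H2B and H3. A second form, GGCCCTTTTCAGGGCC, occurred in 7 members, all of them H4.

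Histone cluster genes took up few counts. Their sum was between 854 and 1463 counts per library, in libraries of 11994148 to 17483982 counts, and amounted to 0.00666% of all counts. The labels give total RNA and standard Illumina libraries without saying whether poly(A) RNA was selected. Of the 9 other RNAs without a poly(A) tail that were listed for comparison (such as Rn7sk and Rmrp), 0 were among the genes of the deposited comparisons. A comparison with them could therefore not be made. Of the 66 entries 5 members, Hist1h2aa, Hist1h2ap, Hist1h2bq, Hist1h2br and Hist1h4n, had 0 counts in all 12 libraries, which allows a level of up to 0.0162 CPM (counts scaled to a common library size, 3 counts over all libraries, counting error only). Hist1h2ap, Hist1h2bq, Hist1h2br and Hist1h4n shared between 85.6% and 97.3% of their 50-base stretches with other members, so that reads from them may have been counted elsewhere or left out, and for these 4 the limit holds for assigned counts only. A further 8 members had fewer than 12 counts in all libraries together, 41 averaged between 1 and 10 counts per library, and 12 averaged more than 10.

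The counts were held by a handful of genes. Hist1h1c (H1.2, a somatic linker histone) alone held 33.2% of the counts of the 66 entries, and with Hist3h2a, Hist2h2be, Hist1h2bc and Hist3h2ba the share was 74.9%. Within types, Hist1h1c held 90.8% of the H1 counts and Hist3h2a 80.7% of the H2A counts. The 2 Hist3 genes on chromosome 11 held 24.3% of all histone cluster counts.

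Counts were set beside the annotated 3′ ends. In 18 matched members the annotated transcript ran on for more than 100 bases past the stem-loop, and their total over the 12 libraries had a median of 70 counts (range 3 to 4082). The 20 matched members without the stem-loop had a median of 16.5 counts, and Hist2h2be with 1319 counts was the highest of them. The annotated transcripts of these 20 had a median length of 424.5 bases, and several are little longer than the coding sequence, so that a stem-loop after it would lie outside the annotation searched. In 20 members the annotation ended within 100 bases of the stem-loop, and the median was 24 counts (range 0 to 152). These counts are not scaled to length, and the median length was 966 bases in the 18 that ran on and 481 in these 20. Per unit of length (RPKM, CPM per kilobase of gene) the medians were closer. They were 0.446 RPKM in those that ran on, 0.306 in those ending near the stem-loop and 0.232 in those without it. The Hist1h1c transcript continued for 840 bases after the stem-loop printed above and had a poly(A) signal (AATAAA or its variant ATTAAA) starting 26 bases before its end. That of Hist3h2a continued for 1643 bases, that of Hist3h2ba for 169 and that of Hist1h4i for 330, each again with a poly(A) signal in the last 50 bases. Such a signal was present in 15 of the 58 matched members, and these 15 held 79.1% of the counts of the 58. Their median was 0.563 RPKM, against 0.291 RPKM in the 43 without the signal. These are descriptions of an annotation that is itself built from sequenced transcripts, and which 3′ ends were captured here was not tested.

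**Figure D1:**
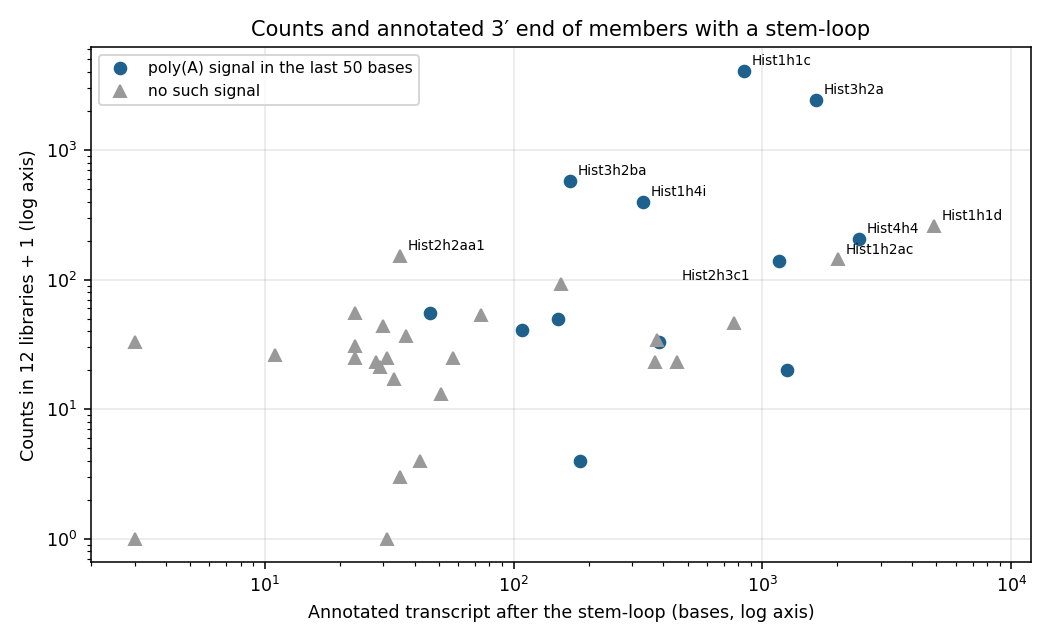
Total counts over the 12 libraries plus 1 (vertical log axis) against the number of bases of annotated transcript after the stem-loop (horizontal log axis) for the 38 members with a stem-loop. Circles mark a poly(A) signal in the last 50 bases and triangles its absence. Hist1h1c (4082 counts, 840 bases) and Hist3h2a (2419 counts, 1643 bases) lie at the upper right. Counts are not scaled to transcript length.

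Several members are near-identical copies of each other. In the 11 matched members that averaged more than 10 counts per library, a median of 8.54% of all 50-base stretches of the transcript also occurred in another histone cluster gene, against 54.6% in the other 47. The stretches of Hist3h2ba and Hist2h2be were not shared (0.0%), those of Hist1h1c were shared for 8.54% and those of Hist1h2bc for 29.4%. Hist2h2aa1 shared 100% of its stretches, and its twin Hist2h2aa2 had 2 counts in all libraries, so that counts of this pair cannot be assigned to either copy. How reads with several matches were counted is not given in the sources used here, and values of highly similar members are uncertain for that reason. Hist2h2aa1, Hist2h3c1 and Hist2h2bb also overlap other annotated genes, in part on the opposite strand, and whether the counting used strand is not given either.

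Per unit of length, given as RPKM (CPM per kilobase of gene, TMM-scaled), the order over all 12 libraries was led by Hist1h1c with a mean of 14.2 RPKM, Hist3h2a with 6.62, Hist1h2bc with 6.16, Hist3h2ba with 5.02 and Hist1h4i with 4.04. Hist2h2be followed with 2.71 RPKM. The next level was that of Hist2h2aa1 at 1.42 RPKM, and 19 members in all reached 0.5 RPKM. In Cre control hearts at E11.5 the level of Hist1h1c was 12.2 ± 0.742 RPKM (SD, n = 3) and that of Hist3h2a 7.32 ± 1.99, whereas Hist3h2ba (4.70 ± 2.07), Hist1h2bc (4.50 ± 1.13) and Hist1h4i (4.17 ± 1.51) lay within each other's spread.

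**Figure D2:**
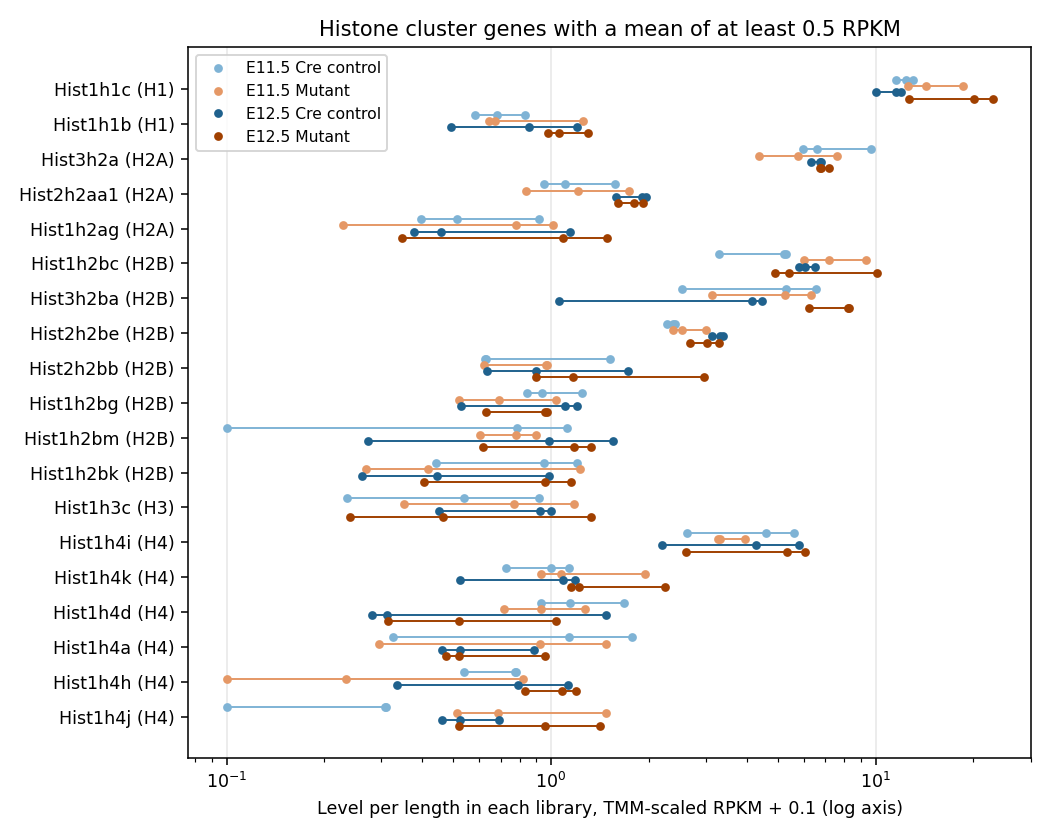
RPKM plus 0.1 (log axis) in each library for the 19 members with a mean of at least 0.5 RPKM, grouped by histone type, with points for libraries and lines from the lowest to the highest library of each group. Hist1h1c is the highest member, and the libraries of most members below 2 RPKM overlap widely between groups.

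The H3 genes were the least represented type. All 12 H3 members together reached 3.59 ± 1.05 RPKM in E11.5 and 2.70 ± 1.09 in E12.5 Cre control hearts. On the same per-length scale the H3.3 genes H3f3a and H3f3b, whose mRNAs are polyadenylated, were at 537 ± 70.3 and 189 ± 22.4 RPKM at E11.5 and at 420.0 ± 25.1 and 154 ± 6.05 at E12.5. The most abundant H3 member by counts, Hist2h3c1, had 18, 8 and 10 counts in the E11.5 Cre control libraries. Hist1h3c had 6, 1 and 3 counts there and Hist1h3a had 4, 2 and 4. Hist2h3c1 and Hist1h3a lay below 0.5 RPKM and were not tested in the main comparisons.

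The targeted gene itself was measured in all hearts. Hira was at 68.6 to 86.2 CPM in E11.5 Cre control and 57.0 to 73.7 CPM in E11.5 Mutant libraries, and at 60.7 to 86.5 and 70.4 to 79.7 CPM at E12.5. The libraries overlapped at both stages (adjusted p = 0.589 and 0.961, edgeR), so that this count over the whole gene did not check the genotype labels. All E11.5 Cre control libraries, 1 E11.5 Mutant library and 1 library of each E12.5 group carried Y-linked reads, so that sex differed between the E11.5 groups. The labelled tissue was checked by its markers, and the summed level of 7 cardiomyocyte genes (Tnnt2 and Myh6 among them) was between 18670 and 25760 CPM in every library.

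The E11.5 comparison asked whether loss of HIRA in the mesoderm altered these genes at the earlier stage. Summed over all 66 entries, the level was 58.9, 57.0 and 68.2 CPM in the Cre control libraries and 64.5, 53.3 and 83.2 CPM in the Mutant libraries. The groups overlapped, and the log2 ratio was 0.11, less than the pooled SD of 0.25. It was -0.062 without mutant 3, 0.26 without mutant 2, 0.18 without control 3 and 0.055 without control 2. By type, the sums overlapped for H1, H2A, H2B, H3 and H4. The H2A sum was 14.98 ± 4.61 CPM in mutants and 17.3 ± 4.05 CPM in controls (SD, n = 3), and the H1 sum was 26.0 ± 5.53 and 21.1 ± 1.16 CPM. The H2A sum is mostly Hist3h2a, whose log2 fold change was -0.34 in the main fit and 0.033 with a sex term, as given further on.

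With edgeR's quasi-likelihood test and Benjamini-Hochberg adjustment over all 12197 genes tested, 0 of the 19 members that passed the filter of 0.5 RPKM were called at E11.5, where 0.115% of all genes were called (adjusted p up to 0.05 and at least 1.5-fold). At an unadjusted p below 0.05 there were 2 of the 19 members, against 1252 of the 12197 genes. Of these 2, Hist1h2ai passed the filter only through the Mutant libraries, so that the share of 19 depends in part on the filter. Without the filter the same 2 members had such a p, of 60 tested. DESeq2 called 0 members, with 1 at an unadjusted p below 0.05. The median log2 fold change of the 19 was 0.03, and that of all genes tested was -0.01. The groups of libraries did not overlap for 2 of the 19 members, Hist1h2bc and Hist1h2ak, and for 16.3% of all genes. Hist1h2ak had 6, 3 and 3 counts in controls and 3, 3 and 2 in mutants. The groups touched at 3 counts, and library scaling alone set them apart.

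Hist1h2bc, an H2B gene whose annotation spans chr13:23684199-23692488 with more than 1 exon, had 3.79, 2.33 and 3.72 CPM in the E11.5 Cre control libraries and 4.30, 5.17 and 6.71 CPM in the Mutant libraries. All mutants lay above all controls. The difference of 0.71 ± 0.29 on the log2 scale (SE) was not called (adjusted p = 0.454). Hist1h2ai, an H2A gene, had 0, 2 and 1 counts in controls and 10, 2 and 4 in mutants. It was the other member with an unadjusted p below 0.05 in edgeR, with an adjusted p of 0.483. Its libraries overlapped. It passed the filter of 0.5 RPKM only through the Mutant libraries (mean 0.939 RPKM, against 0.169 RPKM in controls). Hist3h2a was at 12.9, 11.7 and 19.1 CPM in controls and 11.3, 8.51 and 14.9 CPM in mutants, which overlapped (-0.34 ± 0.26 on the log2 scale, adjusted p = 0.771). With a sex term in the fit the value of Hist3h2a was 0.033, so that its direction was not settled. Log2 fold changes were 0.29 ± 0.17 for Hist1h1c, 0.17 ± 0.20 for Hist2h2be, 0.03 ± 0.42 for Hist3h2ba and -0.29 ± 0.36 for Hist1h4i, which had adjusted p values from 0.651 to 0.993.

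At E12.5 the H1 gene Hist1h1c rose in the mutants. It is located at chr13:23738807-23740366 (mm10) and has a single exon. The Cre control libraries had 17.9, 15.5 and 18.5 CPM (271, 275 and 301 counts) and the Mutant libraries 31.1, 35.7 and 19.6 CPM (465, 611 and 300 counts). Mutants 1 and 2 stood well above the controls, whereas mutant 3 lay just above the highest control. The 1.69-fold difference (0.75 ± 0.18 on the log2 scale, SE) had an adjusted p of 0.0409 in edgeR. Hist1h1c was the only 1 of 20 members tested that was called, against 3.03% of all 12256 genes tested. The call did not depend on mutant 3, since without it the log2 fold change was 0.96 and the adjusted p 0.00345. It was lost, however, without any other library of the comparison (adjusted p from 0.0543 to 0.129, log2 fold change from 0.57 to 0.81).

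Hist1h1d (H1.3), another linker histone gene, had 11, 12 and 18 counts in the E12.5 Cre control libraries and 34, 43 and 11 in the Mutant libraries. Mutants 1 and 2 were again high, and mutant 3 was at the lowest control count. It was below the filter of 0.5 RPKM and was tested only without the filter, where it differed by 1.15 ± 0.44 on the log2 scale (adjusted p = 0.157). Hist1h1b (H1.5) had 4, 9 and 12 counts in controls and 12, 11 and 9 in mutants, which overlapped. The H1 sum was 18.9, 17.0 and 20.8 CPM in controls and 34.5, 39.5 and 21.3 CPM in mutants, without overlap and with a log2 ratio of 0.70 (pooled SD 0.35). Of all single genes tested in this comparison, 26.4% did not overlap.

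Hist3h2ba, an H2B gene at chr11:58948911-58949532, had 0.594, 2.71 and 2.52 CPM in the E12.5 Cre control libraries (9, 48 and 41 counts) and 5.02, 5.08 and 3.80 CPM in the mutants (75, 87 and 58 counts). Every mutant exceeded every control, and control 1 was far below the other controls. The difference of 1.25 ± 0.40 on the log2 scale did not pass the threshold in edgeR (adjusted p = 0.0983) and passed it in DESeq2 (adjusted p = 0.0256). Without control 1 the log2 fold change was 0.84 and the adjusted p 0.138. Hist3h2a, the H2A gene of the same cluster on chromosome 11, was at 13.3, 13.2 and 12.4 CPM in controls and 14.1, 13.3 and 13.2 CPM in mutants. The difference of 0.08 ± 0.11 on the log2 scale had the smallest SE of all members tested in this comparison, and the groups overlapped. In the annotation Hist3h2a overlaps Trim17 on the same strand, so that some of its counts may belong to either gene.

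**Figure D3:**
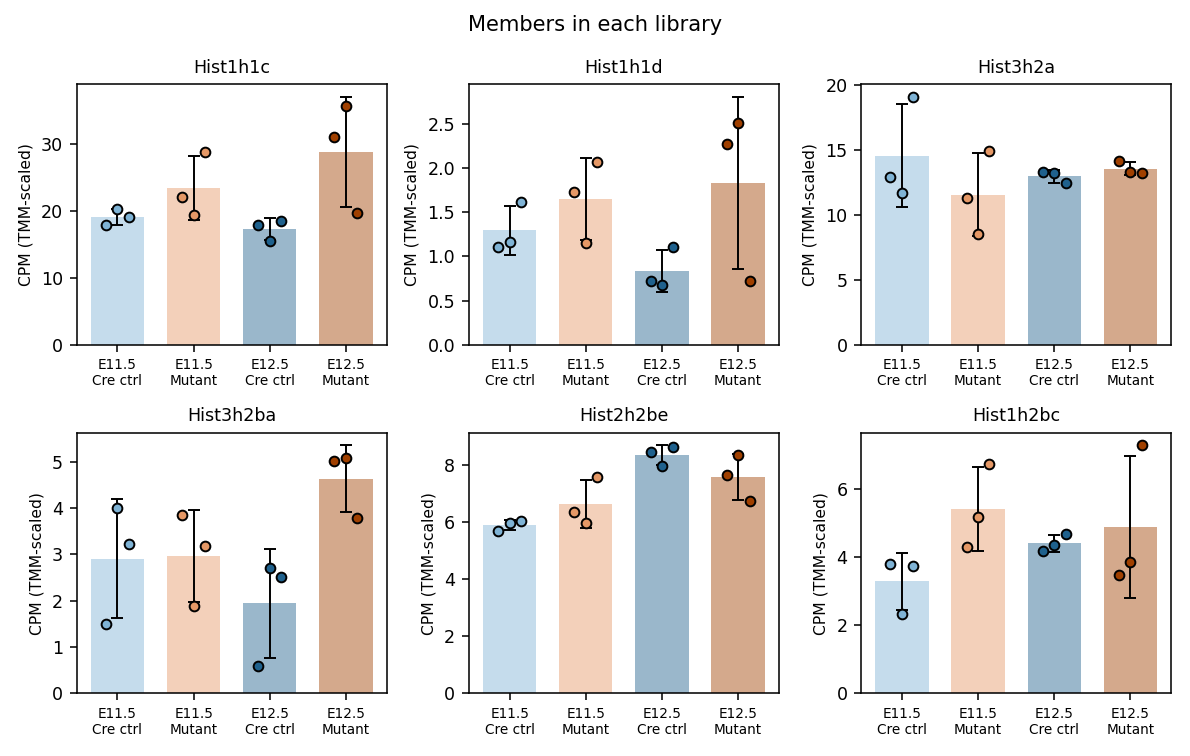
CPM in each library for 6 members, with points for libraries, bars for group means and error bars for SD (n = 3). Hist1h1c and Hist1h1d have 2 high mutant libraries at E12.5 and another near the controls, and Hist3h2ba has its lowest library among the E12.5 controls.

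The other abundant members were not called at E12.5. Hist2h2be was at 8.44, 7.95 and 8.61 CPM in controls and 7.63, 8.35 and 6.74 CPM in mutants, which overlapped (-0.12 ± 0.15 on the log2 scale). Hist1h2bc was at 4.16, 4.34 and 4.67 CPM in controls and 3.48, 3.85 and 7.26 CPM in mutants, of which mutant 3 alone lay above the controls (0.16 ± 0.27 on the log2 scale). Hist1h4i was at 2.24, 1.13 and 3.07 CPM in controls and 2.81, 1.34 and 3.21 CPM in mutants, which overlapped (0.20 ± 0.40 on the log2 scale). Adjusted p values of these genes were between 0.694 and 0.816. Lower members were measured by few counts. In the E12.5 Cre control and Mutant libraries the H2A gene Hist2h2aa1 had 13, 19 and 17 against 13, 18 and 15 counts, and Hist1h2ag had 2, 3 and 8 against 7, 2 and 10. Hist2h2bb, an H2B entry whose identifier is a non-coding RNA in GENCODE vM21, had 4, 7 and 13 against 21, 9 and 6 counts. The H4 gene Hist1h4k had 2, 6 and 5 against 10, 6 and 5 counts, and Hist1h4d had 1, 1 and 7 against 1, 5 and 2. These 5 overlapped between the groups, and 0 of them were called. Over the 20 members tested, 15 had a positive log2 fold change, the median was 0.18 and that of all genes tested was 0.00. The groups of libraries did not overlap for 2 of the 20, Hist1h1c and Hist3h2ba, against 26.4% of all genes.

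**Figure D4:**
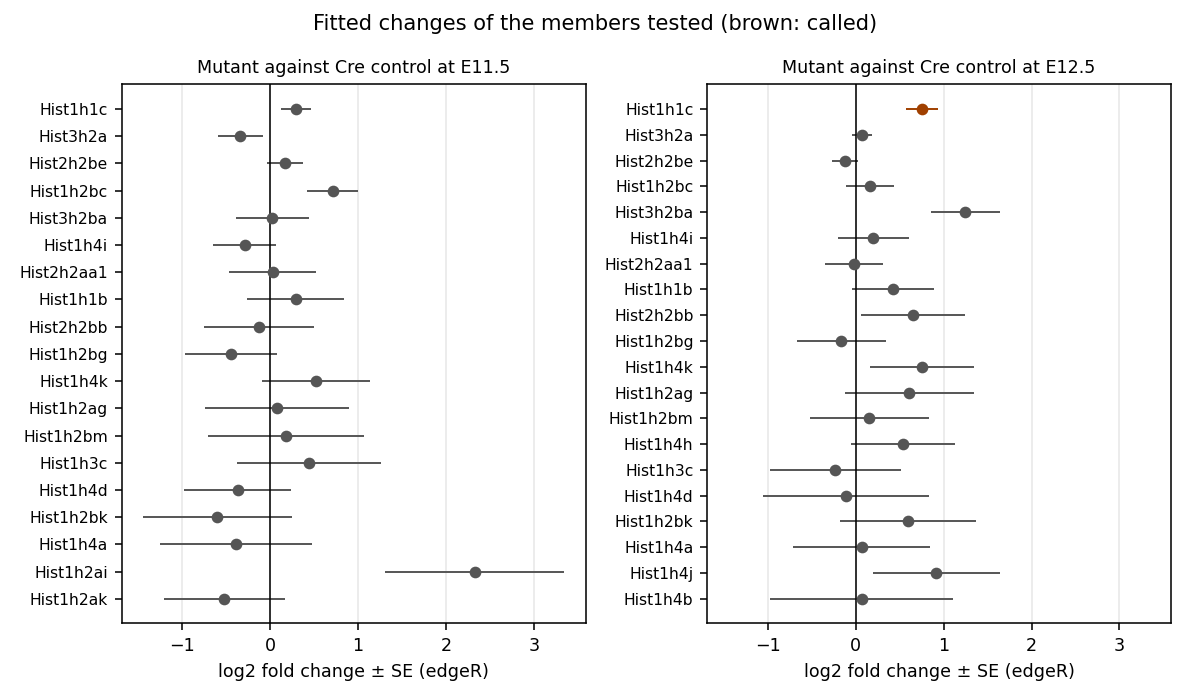
Log2 fold change with its SE (edgeR) of each member tested, Mutant against Cre control, at E11.5 (left, 19 members) and E12.5 (right, 20 members), in order of total counts. Hist1h1c at E12.5 is the single member called, and SEs in the E12.5 panel range from 0.11 to 1.04.

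Summed over all 66 entries, the E12.5 level was 56.3, 56.9 and 66.3 CPM in Cre control and 83.2, 85.4 and 69.4 CPM in Mutant hearts. The mutants all lay above the controls, with a log2 ratio of 0.41 and a pooled SD of 0.15. Without Hist1h1c the sums were 38.5, 41.3 and 47.8 CPM in controls and 52.1, 49.7 and 49.7 CPM in mutants, and the log2 ratio was 0.26. The H2A sum (15.2 to 16.4 against 16.8 to 17.5 CPM) and the H2B sum (14.3 to 18.7 against 19.7 to 20.1 CPM) did not overlap between controls and mutants. Among all single genes tested in this comparison, 26.4% did not overlap. The H3 sum (1.297 to 2.52 against 2.45 to 2.81 CPM) and the H4 sum (3.497 to 6.33 against 4.50 to 6.74 CPM) overlapped. Per unit of length the H3 sum did not overlap (1.68 to 3.84 in controls against 3.90 to 4.23 RPKM in mutants). The H2A sum then overlapped (9.49 to 12.7 against 12.5 to 12.9 RPKM), so that overlap of the H2A and H3 sums depended on the unit. No test was made on these sums, which are dominated by the genes described above. The sum of the 54 members that averaged at most 10 counts per library, also not tested, overlapped (4.42 to 10.3 against 9.29 to 10.8 CPM). In whole hearts a change in the share of cycling cells and a change in RNA per cell cannot be told apart.

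**Figure D5:**
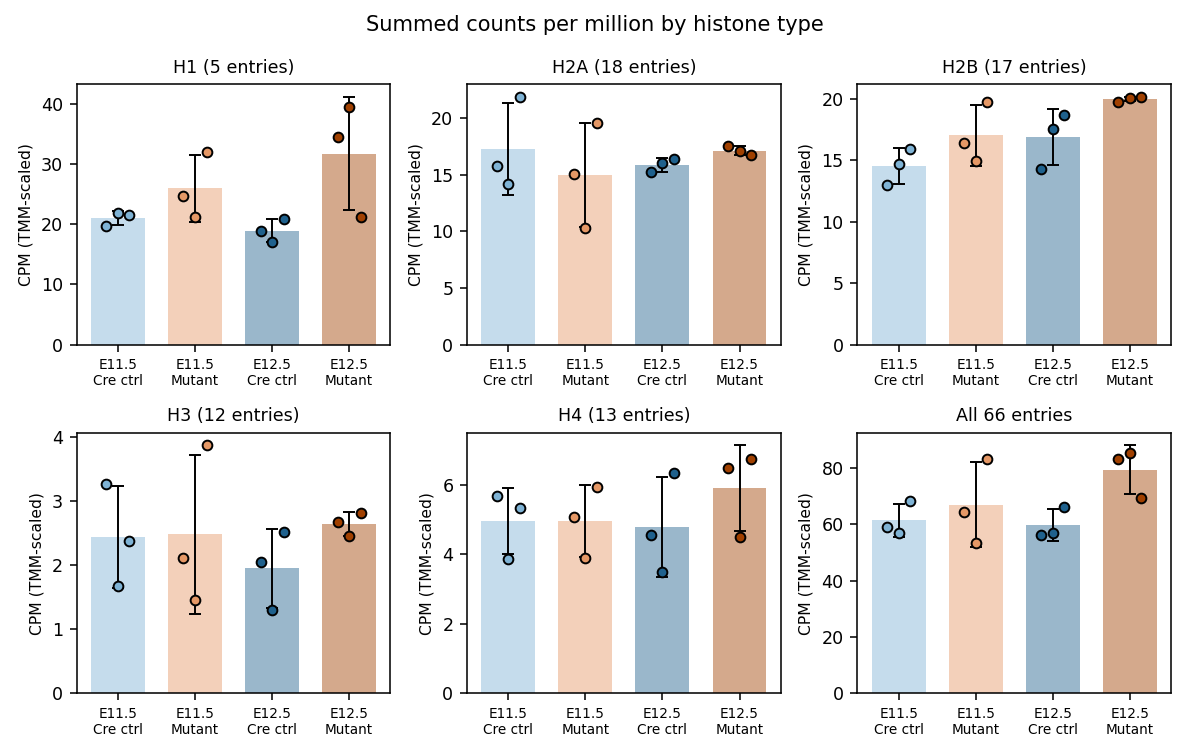
Summed CPM by histone type and over all 66 entries, with points for libraries, bars for group means and error bars for SD (n = 3). The E12.5 Mutant libraries (69.4 to 85.4 CPM over all entries) lie above the E12.5 Cre controls (56.3 to 66.3 CPM), while the E11.5 groups overlap.

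Other cell types moved in the same comparison. Of 9 erythroid genes tested, 5 (the globins Hba-x, Hba-a1, Hbb-y and Hbb-bh1 and the membrane transporter Slc4a1) were called lower in E12.5 mutants, with a summed level of 2082 to 2695 CPM against 3825 to 6303 CPM in controls. Of 6 macrophage genes tested, 2 (Csf1r and Lyz2) were called lower, with sums of 51.0 to 64.6 against 85.7 to 110 CPM. Liver genes summed to between 3.04 and 49.9 CPM in mutants and 3.76 to 5.53 CPM in controls, and 0 of 4 tested were called (3 had an unadjusted p below 0.05, all higher). Cardiomyocyte genes (0 of 7 called, 2 with an unadjusted p below 0.05), endothelial genes (0 of 4, 1 with such a p) and epicardial genes (0 of 4, 0 with such a p) made up the other lists. At E11.5, 1 macrophage gene (C1qb) was called lower and 0 genes of the other cell type lists were called. All 6 macrophage and all 4 epicardial genes had a negative log2 fold change and an unadjusted p below 0.05 there. Such a p was reached in either direction by 2 of 4 endothelial, 2 of 9 erythroid, 0 of 7 cardiomyocyte and 0 of 3 liver genes. The part of these cell types in the histone values was not tested.

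Between E11.5 and E12.5, 0 histone cluster genes were called in either genotype. In Cre control hearts the summed level was 61.4 ± 5.97 CPM at E11.5 and 59.8 ± 5.59 CPM at E12.5 (SD, n = 3, log2 ratio -0.04). Leaving out 1 library moved this ratio between -0.113 and 0.041, with a positive value without E11.5 control 3 or E12.5 control 1. The sums of H1, H2A, H2B, H3 and H4 each overlapped between the stages. Of 19 members tested, 0 were called, where 5.31% of all 12250 genes were. In edgeR 4001 of these genes had an unadjusted p below 0.05. Among the members, 1 had such a p in edgeR and in DESeq2. That member, Hist2h2be, was at 5.69, 5.94 and 6.04 CPM at E11.5 and 8.44, 7.95 and 8.61 CPM at E12.5. The later stage lay above the earlier in all libraries, by 0.50 ± 0.17 on the log2 scale (adjusted p = 0.0736). Hist1h2bc (0.42 ± 0.26, adjusted p = 0.279) and Hist2h2aa1 were also higher in every later library, and Hist1h2bh lower. For Hist1h2bh, with 4, 4 and 4 counts at E11.5 and 1, 1 and 4 at E12.5, the groups touched at 4 counts before library scaling. These 4 of 19 compare with 37.4% of all genes that did not overlap. For Hist1h1c the difference was -0.14 ± 0.13 on the log2 scale, with overlap.

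In Mutant hearts the summed level was 67.0 ± 15.1 CPM at E11.5 and 79.3 ± 8.71 CPM at E12.5, with a log2 ratio of 0.26 and a pooled SD of 0.26. The ratio was 0.11 without E11.5 mutant 2 and 0.43 without E11.5 mutant 3. By type, the H2B sum did not overlap between the stages (17.0 ± 2.45 CPM at E11.5 and 19.9 ± 0.185 CPM at E12.5, log2 ratio 0.24), while the H1, H2A, H3 and H4 sums overlapped. Of 23 members tested, 0 were called, against 0.523% of all 12237 genes. An unadjusted p below 0.05 was reached by 0 of the 23 in edgeR or DESeq2, and by 1117 of all genes in edgeR. Of the 23, 18 had a positive log2 fold change (43 of 61 without the filter). The median of the 23 was 0.31 and that of all genes tested 0.00. Members near the filter of 0.5 RPKM can pass it through 1 stage only, so that the count of 18 depends in part on the filter. On the log2 scale Hist1h1c differed by 0.31 ± 0.23 (adjusted p = 0.728) and Hist2h2be by 0.21 ± 0.18 (adjusted p = 0.781). The libraries of 1 member, the H4 gene Hist1h4h, did not overlap, against 17.4% of all genes. Hist1h4h had 1, 0 and 4 counts at E11.5 and 7, 6 and 8 at E12.5, and passed the filter of 0.5 RPKM only through the E12.5 libraries. Every group enters a stage comparison and a genotype comparison, so that these results share libraries.

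The difference of the mutant effect between the stages was tested directly. None of 19 members had an adjusted p up to 0.05 (0 called in edgeR and DESeq2, 0 with an unadjusted p below 0.05 in either), and 0.0% of all 12270 genes were called. In edgeR 552 of all genes had such an unadjusted p. For Hist1h1c the difference between the stages was 0.45 ± 0.28 on the log2 scale, for Hist3h2ba it was 1.21 ± 0.65, and for Hist1h2bc it was -0.57 ± 0.42. All of these had an adjusted p of 0.954. The rise of Hist1h1c at E12.5 was therefore not shown to differ from its value at E11.5.

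Transcription of the replication-independent histone genes is mostly not tied to S phase, and they give polyadenylated mRNAs. Of 12 listed, 11 were in the table and tested, and 1 of 11 was called at E12.5, where 10 of 11 had a positive log2 fold change. The called gene, H1f0, encodes the replacement linker histone H1.0 found in differentiating cells. It was at 179, 197 and 184 CPM in E12.5 Cre control and 299, 310 and 297 CPM in Mutant libraries, without overlap, and rose by 0.71 ± 0.07 on the log2 scale (adjusted p = 0.00107). At E11.5 it was at 166, 169 and 159 CPM in controls and 282, 234 and 315 CPM in mutants, again without overlap (0.75 ± 0.14 on the log2 scale, adjusted p = 0.0934 in edgeR). The E11.5 call of H1f0 depended on the method: it was made in DESeq2 (adjusted p = 0.000157), without the filter (0.0429), with all 12 libraries in 1 fit (0.00425), with the replicate block (0.0486) and with the sex term (0.0482), and over all alternatives the adjusted p was at most 0.42. At that stage 0 of 11 were called, with 1 at an unadjusted p below 0.05.

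H3f3b, which encodes H3.3, was at 295, 305 and 319 CPM in E12.5 Cre control and 420, 424 and 417 CPM in Mutant libraries. The mutants lay above the controls by 0.47 ± 0.07 on the log2 scale (adjusted p = 0.00475), while the 1.39-fold difference stayed below the 1.5-fold required for a call. H3f3a, the other H3.3 gene, was at 449, 427 and 480 CPM in controls and 577, 563 and 502 CPM in mutants, without overlap (0.29 ± 0.08 on the log2 scale, adjusted p = 0.0634). H2afz, which encodes the replacement histone H2A.Z, differed by 0.16 ± 0.08 (adjusted p = 0.294). H2afx, whose product is phosphorylated at DNA breaks and whose gene yields both stem-loop and polyadenylated mRNAs, by -0.18 ± 0.11 (adjusted p = 0.394).

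Factors that act on histone mRNAs and S phase genes served as further lists. Of 16 genes for histone transcription and 3′ processing, 15 were in the table, and 0 were called at either stage (14 tested at E12.5 with 1 at an unadjusted p below 0.05, 15 at E11.5 with 0). Slbp, the stem-loop binding protein, was at 96.2, 94.2 and 98.0 CPM in E12.5 Cre control and 95.3, 108 and 88.1 CPM in Mutant libraries (0.03 ± 0.08 on the log2 scale). Npat, the coactivator that cyclin E-CDK2 acts on at histone clusters, was at 71.2, 54.8 and 62.1 CPM and 58.7, 61.2 and 59.5 CPM (-0.05 ± 0.10 on the log2 scale). Both overlapped between groups, with adjusted p values of 0.882 and 0.796. Of 26 DNA replication genes, 25 were tested and 0 were called at either stage. Their median log2 fold change was 0.01 at E11.5 (0 at an unadjusted p below 0.05) and -0.05 at E12.5 (3 at an unadjusted p below 0.05, 19 of 25 negative). From E11.5 to E12.5 all 25 had a negative log2 fold change in Mutant hearts and 22 of 25 in Cre control hearts, with 0 called in both (4 and 7 at an unadjusted p below 0.05). Between the same stages 6 of 9 erythroid genes were called lower and 4 of 6 macrophage genes higher in Mutant hearts. In Cre control hearts 4 of 9 erythroid genes were called lower and 1 higher, and 3 of 4 epicardial genes were called lower. The part of these cell types in the stage values was not tested.

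The promoters of Hist1h1c and Hist3h2ba, whose E12.5 libraries did not overlap between genotypes, are shown with the elements known from histone promoters. Promoters (250 bases before to 50 after the start, RefSeq, GRCm38.p6) were matched for 60 members and searched on both strands for the TATA box (TATAAA), the CCAAT box (CCAAT), the octamer of histone promoters (ATTTGCAT) and the H1 box (AAACACA). In the sequences, capitals mark any of these matches.
Hist1h1c, chr13:23738557-23738856, plus strand: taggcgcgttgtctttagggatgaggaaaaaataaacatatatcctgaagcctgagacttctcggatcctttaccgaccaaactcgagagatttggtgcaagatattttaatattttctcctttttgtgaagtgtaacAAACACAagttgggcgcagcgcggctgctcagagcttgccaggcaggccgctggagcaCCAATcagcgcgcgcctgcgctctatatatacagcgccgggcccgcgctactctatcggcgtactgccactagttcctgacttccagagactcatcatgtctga
Hist3h2ba, chr11:58948661-58948960, plus strand: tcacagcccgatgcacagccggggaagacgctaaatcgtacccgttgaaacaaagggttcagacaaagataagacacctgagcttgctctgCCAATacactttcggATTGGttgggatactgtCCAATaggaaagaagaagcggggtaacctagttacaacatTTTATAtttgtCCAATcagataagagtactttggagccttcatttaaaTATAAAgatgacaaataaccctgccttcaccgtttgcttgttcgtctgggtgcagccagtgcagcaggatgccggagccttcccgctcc

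The H1 box was present in 4 of 5 H1 promoters, among them those of Hist1h1c, Hist1h1d and Hist1h1b, and in 7.18% of all 32851 RefSeq promoters. It also occurred in 2 of 18 H2A and 2 of 15 H2B promoters, and in 0 of 10 H3 and 0 of 12 H4 promoters. CCAAT occurred in all 5 H1, 18 H2A, 15 H2B and 10 H3 promoters matched and in 3 of 12 H4 promoters, against 37.4% of all promoters. TATAAA occurred in 34 of the 60 (56.7%) against 13.6%. The octamer occurred in 7 of 18 H2A and 6 of 15 H2B promoters and in 0 of 27 others, against 1.74% of all. Several H2A and H2B genes lie head to head and share these windows, so that a motif can be counted for both genes of a pair. Hist1h2ae and Hist1h2bg, whose starts are 180 bases apart, had 49 and 91 counts in all libraries, while most of the pairs listed this way had fewer.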

How the data were processed

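RNA-seq of embryonic hearts was analysed from the deposited tables (12 libraries, 3 for each of 4 groups taken from the labels). The authors aligned reads to mm10 with Bowtie2 (per the submitters' processing notes) and normalised with DESeq. Counting rules, strand and annotation are not given in the sources used here. The deposited value column is labelled RPKM, but each value equals a count times a gene length times a factor of the library (an other unit). Together with the authors' deposited average counts (estimated counts per group), whole counts were recovered for 17827 of 17827 genes with reads (100.0%, within 1e-06), out of 20368 genes in the value table and 19424 in the comparisons. The 2 comparison tables also hold p-values, fold changes and z scores of the authors, which were not used. Counts per library were between 11994148 and 17483982, and intervals and floors cover counting error only.

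Genes with a mean of at least 0.5 RPKM over the libraries of a comparison were tested with edgeR 4.0.16 (R 4.3.3, quasi-likelihood test, TMM scaling over all genes) and adjusted by Benjamini-Hochberg over all genes. A gene was called at an adjusted p up to 0.05 and at least 1.5-fold, and for the difference between stages at the adjusted p alone. CPM and RPKM printed per library were scaled over all 12 libraries. The fit was also run on simulated counts, with changes placed only in well-counted genes, so that this run does not cover members with few counts. Alternatives were no filter, 5 RPKM, median-ratio scaling, DESeq2 1.42.0, no fold threshold, 12 libraries in 1 fit, the replicate number as a block, a sex term from Y-linked counts, and leaving out each library. Members named were the 3 of each type highest in RPKM, those called, and those outside Hist1 with at least 0.5 RPKM; Hist4h4, Hist2h2aa2, Hist1h2ai, Hist1h2ak, Hist1h2bh, Hist1h4h, Hist1h2ae and Hist1h2bg, and the 0-count genes, were named after their values were seen. The members and lists were chosen with earlier results of these data known. 7 members had no match by identifier in GENCODE vM21, and the symbols Hist2h2aa1 and Hist2h2bb are those of the deposited files. Protein sequences were not used here.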

Additional observations from a re-analysis of the deposited data

How the results depend on the processing

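At E12.5, 1 histone cluster gene was called in the genotype comparison, and the count was 2 with DESeq2 (Hist1h1c and Hist3h2ba), 0 with all 12 libraries in 1 fit (Hist1h1c at an adjusted p of 0.101), and between 0 and 1 when a library was left out. It stayed at 1 without a filter, at 5 RPKM, with median-ratio scaling, without the fold threshold, with the replicate block and with the sex term. In the other 4 comparisons the count was 0 under every alternative run. The log2 ratio of summed counts at E12.5 was 0.18 when taken as the median of the members tested and 0.26 without Hist1h1c, an alternative chosen after the data were seen. The other summed ratios moved by less than 1 SD, although that at E11.5 ranged from -0.062 to 0.259, that of the stages in Cre control from -0.113 to 0.041 and that in Mutant hearts from 0.109 to 0.43 when a library was left out. Of 397 alternative values of 28 printed log2 fold changes, 375 kept direction and side of the threshold, 6 were lost (all Hist1h1c at E12.5), 7 passed it in addition (Hist3h2ba with DESeq2, H3f3b without the fold threshold, H1f0 at E11.5 under 5 alternatives), and 9 changed sign in genes that were not called. With the sex term Hist3h2a at E11.5 was at 0.033. When a library was left out, Hist3h2ba at E11.5 ranged from -0.28 to 0.33, and at E12.5 Hist1h2bc from -0.25 to 0.34, Hist1h4i from -0.12 to 0.56, Slbp from -0.057 to 0.087 and Npat from -0.144 to 0.046. The cause of these changes was not tested. Whether the replicate numbers pair the libraries is not given by the labels. In the genotype comparisons the deviations of same-numbered libraries correlated at -0.049, 0.444 and 0.31 at E11.5 and between 0.004 and 0.054 at E12.5. A pairing at E11.5 was therefore not settled. The block changed no count of members called. The SE of the members tested at E12.5 ranged from 0.11 to 1.04. In the 7 of them that averaged more than 10 counts per library it ranged from 0.114 to 0.401. The part of counting error in these SEs was not tested.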
